A study of Mus musculus with 8 samples.

Results

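Livers with a hepatic deletion of Med23 (LMKO mice) were compared with livers of control mice after 24 h without food. Each library lists 23699 annotated loci with an FPKM, a level in fragments that is corrected for transcript length and library size. The loci compared were the 10377 that reached 1 FPKM in 2 or more of the 4 fasted libraries. Just inside that threshold lay Prdm15, at 1.30, 0.831, 1.0003 and 0.915 FPKM in control replicates 1 and 2 and LMKO replicates 1 and 2, and just outside it lay Hvcn1, at 0.495, 0.808, 1.07 and 0.999 FPKM. Each group held 2 male C57/BL6 mice aged 8 weeks, labelled control or LMKO. The 4 fasted livers were taken after the fast, and 4 further livers, again 2 per genotype, after the same fast followed by 24 h with food. The re-fed livers entered the model for its estimate of spread and serve below as a separate comparison of the genotypes. The driver of the deletion, the deleted exons and the alleles of the control mice are not given in the sources used here.

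MED23 is a subunit of the tail of Mediator, the complex that passes signals from DNA-bound transcription factors to RNA polymerase II. The fasted liver makes glucose from lactate, glycerol and amino acids, under the control of glucagon, glucocorticoids and low insulin. These signals act in part through CREB, the glucocorticoid receptor, FOXO factors and the coactivator PGC-1 alpha, while the nitrogen of the amino acids leaves through the urea cycle.

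The deleted gene was examined before any other. Med23 (chr10:24589792-24633335, mm9) stood at 2.87 and 2.93 FPKM in the fasted controls and at 2.35 and 2.18 FPKM in the fasted LMKO livers. Both LMKO libraries lay below both controls, as at 12.7% of all loci tested. The difference of -0.26 ± 0.116 (log2(FPKM + 1), SE, n = 2 mice per group) did not pass the test (limma, Benjamini-Hochberg adjusted p = 0.420). In the re-fed livers the means were 2.60 ± 0.379 (SD, n = 2) in controls and 1.68 ± 0.0940 FPKM in LMKO. The value covers the whole locus, whichever exons were deleted, and whole liver also holds cells other than hepatocytes.

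The 4 fasted libraries summed to between 453652 and 468218 FPKM, with 10105 to 10328 loci at 1 FPKM or more; the number of fragments behind them is unknown, since FPKM is not a count. Across the tested genes, which are not independent replicates, log2(FPKM + 1) correlated at 0.965 between the controls, at 0.969 between the LMKO livers and at 0.946 to 0.963 across genotypes. The lowest of these, 0.946 and 0.949, were those of fasted control replicate 2. Rn45s, a ribosomal RNA precursor, stood at 1324 FPKM in LMKO replicate 1 and at 185 to 388 FPKM in the other 3 fasted libraries; its part in the results was not tested. Of 11 hepatocyte markers, Alb was listed at 0 in every fasted library, and the others summed to between 25025 and 28218 FPKM per library. Markers of pancreatic acinar cells and of skeletal muscle summed to at most 0.565 and 0.0857 FPKM.

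Across all loci the genotype difference passed the test (adjusted p under 0.05) at 30 loci, which is 0.289% of those tested: 21 lower (0.202%) and 9 higher (0.0867%) in LMKO. At an unadjusted p under 0.05 there were 1343, or 12.9%. A second, untested description of size counted loci that differed by at least 1 on the log2 scale, that is at least 2-fold, with both LMKO libraries on the same side of both controls; it held 218 loci, or 2.10%, of which 128 were lower and 90 higher. The median difference of all loci was 0.08, with 65.2% higher and 34.8% lower in LMKO. After median-ratio scaling of the libraries that median became 0.00, and 19 loci were called lower and 2 higher in place of 21 and 9. Of the 30 calls, 3 were loci under 200 bases (Snord23, Snora2b and Mir3968), shorter than the fragments such libraries are usually made of. The other 27 comprised 20 falls and 7 rises, and 8 of them were called again in each fit without 1 of the 8 libraries: Mup7, Mup11, Mup12, Mup14, Mup16, Mup17, 1300015D01Rik and Rarres1.

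**Figure D1:**
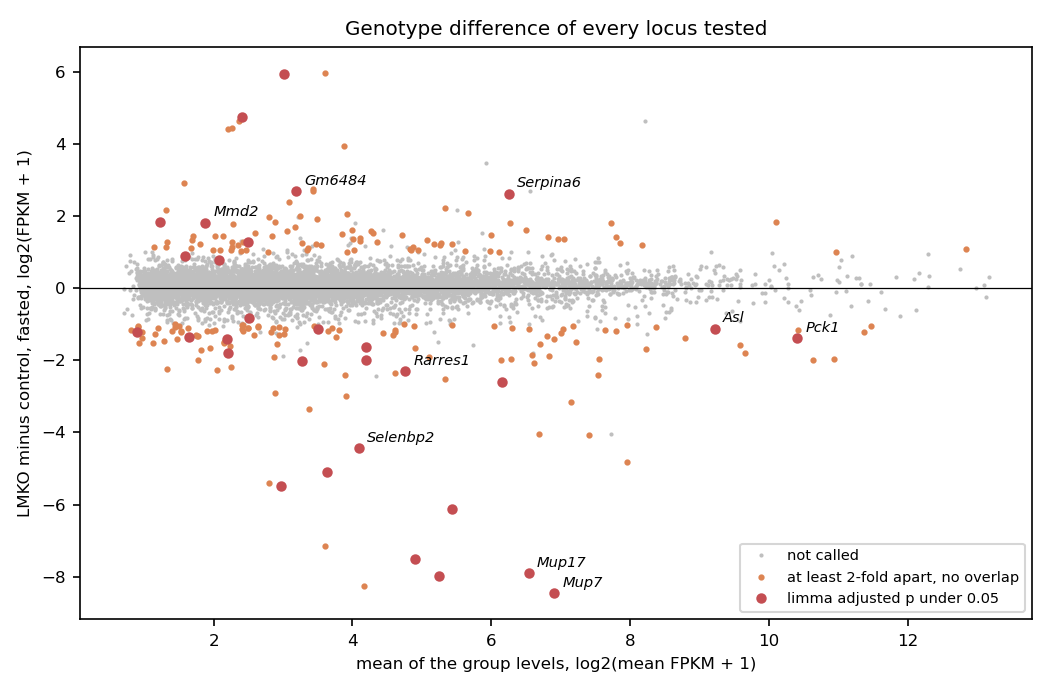
Genotype difference of each of the 10377 loci, as LMKO minus control in fasted liver on the log2(FPKM + 1) scale (vertical axis), against the mean of the group levels as log2(mean FPKM + 1) (horizontal axis). Red points are the 30 loci that passed limma's test and orange points the other loci at least 2-fold apart without overlap; the deepest falls are Mup genes, and Pck1 and Asl are called at high levels.

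The genes of glucose production that passed were the rate-limiting enzyme and its coactivator. Pck1, which encodes cytosolic phosphoenolpyruvate carboxykinase (chr2:172978574-172984754, mm9), stood at 2244 and 2128 FPKM in the fasted controls and at 824 and 855 FPKM in LMKO. The groups lay far apart beside the gap of either pair, and Pck1 fell by 1.38 ± 0.126 on the log2 scale (SE; adjusted p = 0.0122). Ppargc1a, which encodes PGC-1 alpha (chr5:51845488-51945160, mm9), stood at 6.66 and 6.64 FPKM in controls and at 3.14 and 3.40 FPKM in LMKO. It fell by 0.84 ± 0.107 (adjusted p = 0.0435). Without LMKO replicate 1 or without LMKO replicate 2, Pck1 missed the threshold (adjusted p = 0.102 and 0.0841) at differences of -1.35 and -1.41, and Ppargc1a missed it in each fit that left out a library, with adjusted p between 0.0685 and 0.206. With only the 4 fasted libraries in the model the adjusted p was 0.120 for Pck1 and 0.186 for Ppargc1a.

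The other enzymes of the pathway did not follow them as a group. Of 22 gluconeogenic loci tested, 2 were called lower, none higher and 20 not called, against 0.202% called lower among all loci; the median difference was -0.04, and 0.01 without control replicate 2. Got1 and Gpt2, the cytosolic aspartate and mitochondrial alanine aminotransferases that feed carbon into the pathway, were at least 2-fold lower without overlap, but not without control replicate 2, where 1 member in place of 3 was. Got1 stood at 445 and 524 against 229 and 227 FPKM (difference -1.08, adjusted p = 0.0804), and Gpt2 at 184 and 230 against 103 and 95.2 FPKM (-1.05, adjusted p = 0.128). Ldha, lactate dehydrogenase A, stood higher at 904 and 681 FPKM in LMKO against 566 and 486 FPKM in controls, and did not pass (adjusted p = 0.234).

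Promoter sequence was read for the called genes because Pck1 is the textbook target of CREB, which binds the cAMP response element. RefSeq's promoter table (GRCm38.p6) held 15 of the 20 genes called lower and 5 of the 7 called higher. In the 250 bases before the start, the core TGACG was found on either strand for 5 of the 15 genes called lower (33.3%), for 1 of the 5 called higher (20.0%) and for 17.8% of all 32851 promoters. Pck1, the gene that prompted the search, is itself 1 of those 5 lower genes, so their share is not independent of that choice. The whole element TGACGTCA, which contains TGACG on both strands, was present in 1 of the 15 (Arl4d) and in 1.55% of all promoters. Besides Pck1, Ppargc1a and Arl4d, the lower genes with the core TGACG were Rarres1 and Hist1h4i (listed as H4c9), and the higher gene was Rell1. The 3 sequences below show how Pck1, Ppargc1a and Arl4d carry the core, in capitals (CGTCA is TGACG read on the opposite strand). In Pck1 it spans 90 to 86 bases and in Ppargc1a 49 to 45 bases upstream of the start. In Arl4d the whole element spans 26 to 19 bases upstream and a second core lies 228 to 224 bases upstream.
Pck1 (chr2:173152823-173153072, plus strand): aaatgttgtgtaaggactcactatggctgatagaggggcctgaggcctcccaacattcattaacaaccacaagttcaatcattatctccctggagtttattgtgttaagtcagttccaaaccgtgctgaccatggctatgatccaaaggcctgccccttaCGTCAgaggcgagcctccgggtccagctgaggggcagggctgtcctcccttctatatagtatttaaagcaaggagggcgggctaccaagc
Ppargc1a (chr5:51567726-51567975, minus strand): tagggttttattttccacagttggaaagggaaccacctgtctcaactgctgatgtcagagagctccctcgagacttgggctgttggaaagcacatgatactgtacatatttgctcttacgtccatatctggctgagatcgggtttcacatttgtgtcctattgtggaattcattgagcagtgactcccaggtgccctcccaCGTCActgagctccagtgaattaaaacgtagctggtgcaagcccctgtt
Arl4d (chr11:101665291-101665540, plus strand): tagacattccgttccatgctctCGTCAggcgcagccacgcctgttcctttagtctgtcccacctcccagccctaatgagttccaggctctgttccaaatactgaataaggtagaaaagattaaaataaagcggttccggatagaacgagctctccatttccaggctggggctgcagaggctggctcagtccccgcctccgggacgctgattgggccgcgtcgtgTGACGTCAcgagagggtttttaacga
The forkhead sequence TGTTTAC was in none of the 15 and in 3.17% of all promoters, and the STAT sequence TTCNNNGAA in 1 of the 15 (Wipi1) and in 7.02%. These are matches of letters only; with 15 and 5 promoters the shares were not tested.

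The 2 loci beside Pck1 on chromosome 2 were called lower as well. 1300015D01Rik, which RefSeq lists as Ctcflos, a non-coding transcript opposite Ctcfl, lies 19868 bases upstream of Pck1 (chr2:172950250-172958705, mm9). It stood at 18.1 and 18.9 FPKM in the fasted controls and at 4.12 and 3.45 FPKM in LMKO. It fell by 2.03 ± 0.133 (adjusted p = 0.00240), and its adjusted p without any 1 library was at most 0.0230. Ctcfl, the germline paralogue of the insulator protein CTCF, ends 5223 bases before that transcript and stood at 4.28 and 3.64 against 1.18 and 0.739 FPKM. Ctcfl fell by 1.35 ± 0.153 (adjusted p = 0.0302) but was called in none of the 8 fits without 1 library (adjusted p up to 0.147). The deposited spans of the 3 loci do not overlap, and the sources used here do not say whether reads were counted by strand. Of the other loci within 300000 bases that passed the filter, Rae1 differed by -0.03, Rbm38 by 0.25 and Zbp1 by -0.39, none of them called, while Bmp7, Spo11 and Pmepa1 were under the filter. The 3 loci also had low re-fed control levels beside their fasted ones: 374 against 2186 FPKM for Pck1, 1.57 against 18.5 FPKM for 1300015D01Rik and 0.525 against 3.96 FPKM for Ctcfl.

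**Figure D2:**
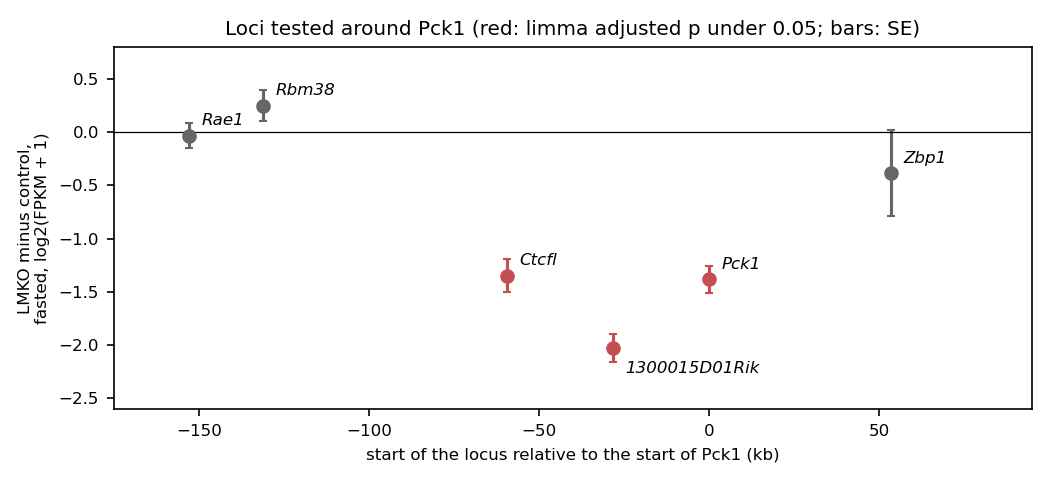
LMKO minus control difference in fasted liver (vertical axis, log2(FPKM + 1), bars show the SE) of the tested loci around Pck1, placed by the distance of their start from that of Pck1 in kb (horizontal axis). Ctcfl, 1300015D01Rik and Pck1, in red, passed the test at -1.35, -2.03 and -1.38; Rae1, Rbm38 and Zbp1, in grey, did not.

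The enzymes that dispose of amino acid nitrogen and break down amino acids included 1 call. Asl, argininosuccinate lyase of the urea cycle (chr5:130487373-130500201, mm9), stood at 833 and 924 FPKM in controls and at 408 and 398 FPKM in LMKO. It fell by 1.12 ± 0.120 (adjusted p = 0.0239), but without each library in turn it passed only once in 8 (adjusted p up to 0.154). The urea cycle list had 8 loci, 6 of them lower in value, 1 called lower, against 0.202% of all loci, and a median of -0.43 (-0.29 without control replicate 2). Cps1, which makes carbamoyl phosphate, stood at 1724 and 2390 against 971 and 863 FPKM without passing (adjusted p = 0.123). Of 43 loci of amino acid catabolism none was called, 25 were lower and 18 higher, and the median was -0.04, or 0.05 without control replicate 1. At least 2-fold lower without overlap were 5 members, against 1.23% of all loci, among them Tat, tyrosine aminotransferase, at 1094 and 1966 against 452 and 393 FPKM (adjusted p = 0.0712), and Mat1a, which makes S-adenosylmethionine, at 3784 and 4379 against 2170 and 1771 FPKM (adjusted p = 0.111). Csad, an enzyme of taurine synthesis, was the 1 member at least 2-fold higher without overlap, against 0.867% of all loci. It stood at 190 and 97.5 FPKM in LMKO against 28.2 and 51.6 FPKM in controls (1.81, adjusted p = 0.167).

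Several called falls lay outside the metabolic lists. Rarres1, a gene named for its response to retinoids (chr3:67282808-67319445, mm9), stood at 55.0 and 63.4 FPKM in controls and at 11.6 and 10.9 FPKM in LMKO. It fell by 2.30 ± 0.160 (adjusted p = 0.00304). Rarres1 was the only call among 22 retinoid genes, against 0.202% of all loci called lower. The median of that list was -0.10, or 0.02 without LMKO replicate 1 and 0.00 without control replicate 1. Tlcd2, a membrane protein of the TLC domain family, stood at 39.8 and 31.3 against 8.52 and 7.80 FPKM and fell by 1.99 ± 0.201 (adjusted p = 0.0183). Mycl1, a Myc family transcription factor now named Mycl, stood at 8.28 and 6.96 against 1.75 and 1.18 FPKM and fell by 1.81 ± 0.183 (adjusted p = 0.0183). Neither gene had overlapping groups, against 12.7% of all loci lower in that way. Mycl1 was the only call among the 11 Myc, Max and Mxd family members tested, against 0.202% of all loci called lower.

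Among the other called falls, Arl4d, a small GTPase gene, stood at 25.3 and 37.7 against 9.87 and 8.64 FPKM (-1.64, adjusted p = 0.0301). Tbc1d30, a GTPase-activating protein of Rab proteins, stood at 7.13 and 5.78 against 1.73 and 1.91 FPKM (-1.40, adjusted p = 0.0176). Wipi1, which binds phosphoinositides on forming autophagosomes, stood at 14.9 and 16.8 against 6.88 and 6.34 FPKM (-1.15, adjusted p = 0.0239). The groups of these 3 genes did not overlap, against 12.7% of all loci lower in that way. Wipi1 was the only call among 38 loci of autophagy and the lysosome, against 0.202% of all loci called lower. Of the 38, 24 were higher and 14 lower, near the shares of all loci. Hist1h4i, a histone H4 gene with near-identical copies, stood at 1.71 and 1.95 against 0.264 and 0.173 FPKM (-1.22, adjusted p = 0.0435). Without either fasted LMKO library the calls of Mycl1, Tlcd2, Tbc1d30, Arl4d, Wipi1 and Hist1h4i were lost, at adjusted p between 0.0597 and 0.202. Other single libraries ended further calls: Arl4d passed in 2 and Wipi1 in 3 of 8 such fits, and Hist1h4i in 2 of the 6 where it was tested.

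**Figure D3:**
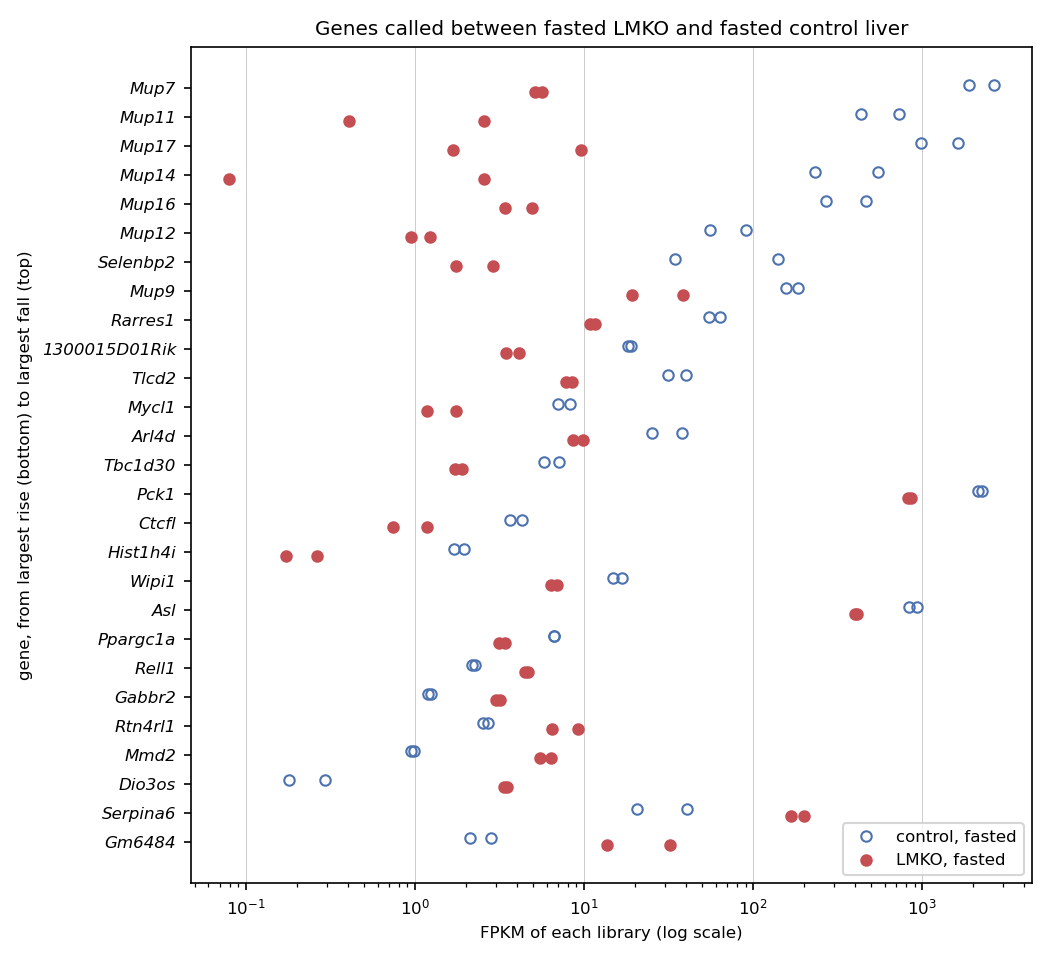
FPKM (horizontal log axis) of the 27 called genes of at least 200 bases in each fasted library, with open blue circles for the 2 controls and filled red circles for the 2 LMKO livers. Genes run from the largest fall at the top to the largest rise at the bottom. No gene has overlapping groups, which their choice by small p favours. Among all loci 12.7% were lower and 33.3% higher without overlap.

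Genes known to respond to glucocorticoids were mostly lower in value. Of 20 members tested 18 were lower and 2 higher, the median was -0.72, and 1 (Pck1) was called lower, against 0.202% of all loci; 7 were at least 2-fold lower without overlap, against 1.23% of all loci. The list was written with results of these data known, so it is not independent evidence of a direction. Igfbp1, a binding protein of insulin-like growth factors, stood at 216 and 624 FPKM in controls and at 71.5 and 22.4 FPKM in LMKO (-3.16, adjusted p = 0.131). Errfi1, a feedback inhibitor of EGF receptor signalling, stood at 453 and 556 against 89.9 and 266 FPKM (-1.69, adjusted p = 0.241). Nr3c1, the glucocorticoid receptor, was among the 2 higher members, at 16.2 and 21.6 FPKM in LMKO against 12.6 and 12.2 FPKM (0.56, adjusted p = 0.233). Fasted control replicate 2 was high for several members, chosen here after their values were seen: Ddit4 stood at 46.3 FPKM there and 4.02 FPKM in replicate 1, and Cdkn1a at 27.7 and 4.30 FPKM. Without that library the list median was -0.34, with 15 lower and 5 higher, and without LMKO replicate 1 it was -0.31.

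The deepest falls were in the Mup genes, which encode the major urinary proteins, pheromone carriers that male mouse liver makes in large amounts. All 15 Mup loci tested were lower in LMKO without overlap, against 12.7% of all loci, 7 of them were called, against 0.202% of all loci called lower, and the median was -2.41. Mup7 (chr4:60079341-60083347, mm9) stood at 1878 and 2642 FPKM in controls and at 5.13 and 5.60 FPKM in LMKO, and fell by 8.45 ± 0.292 (adjusted p = 0.000179). Mup17 stood at 983 and 1627 against 1.67 and 9.58 FPKM and fell by 7.90 ± 0.581 (adjusted p = 0.00387). Mup16 stood at 269 and 462 against 3.40 and 4.91 FPKM and fell by 6.11 ± 0.281 (adjusted p = 0.000449). The calls of Mup7, Mup16, Mup11, Mup12, Mup17 and Mup14 were kept in each of the 8 fits without 1 library, whereas Mup9, at 156 and 185 against 19.1 and 38.2 FPKM, kept its call in 1 of 8. With only the 4 fasted libraries in the model, Mup17 and Mup14 missed the threshold (adjusted p = 0.0871 and 0.0943).

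How the reads were shared among the Mup copies is uncertain. Of the 50-base windows of the Mup7 transcript, 15% occur in the GENCODE M21 transcripts of no other Mup gene, and for the other 6 called copies the share ran from 8.29% (Mup16) to 22.2% (Mup11). Mup20 and Mup3, which are among the copies of distinct sequence with 95.3% and 87.4% of such windows, were lower by less. Mup6 (98.3%), Mup4 (87.7%), Mup5 (83.9%) and Mup21 (80.9%) were also distinct, and their levels are not described here. Mup20 stood at 2741 and 3400 FPKM in controls and at 1101 and 534 FPKM in LMKO (-1.99, adjusted p = 0.0896). Mup3 stood at 3772 and 4289 against 1787 and 1658 FPKM (-1.22, adjusted p = 0.176). Summed over all 23 Mup loci, the level was 15599 and 19793 FPKM in the fasted controls and 5097 and 6310 FPKM in LMKO, without overlap. The sum depends less on the split than single copies do, but is not free of it, since FPKM is corrected for the length of each transcript.

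Other genes with a known sex bias in liver were mixed. Of 21 male-biased loci other than Mup, 15 were lower and 6 higher, the median was -0.37, and 1 was called lower, against 0.202% of all loci. The median was -0.12 without LMKO replicate 1 and -0.66 without LMKO replicate 2. That call was Selenbp2, a selenium-binding protein with a close copy, at 139 and 34.5 FPKM in controls and at 1.75 and 2.89 FPKM in LMKO (-4.43 ± 0.568, adjusted p = 0.0435); it was lost in 6 of the 8 fits without 1 library. Hsd3b2, a steroid dehydrogenase on the same list, was higher, at 14.5 and 40.5 FPKM in LMKO against 4.30 and 1.85 FPKM (adjusted p = 0.104). Of 12 female-biased loci none was called, and 8 were higher and 4 lower (5 of 10 tested were higher without LMKO replicate 2). At least 2-fold apart without overlap were 2 higher and 2 lower, against 0.867% and 1.23% of all loci. Among the higher loci was Abcd2, a peroxisomal fatty acid transporter, at 6.37 and 9.50 FPKM in LMKO against 2.43 and 0.890 FPKM in controls (adjusted p = 0.0896).

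Growth hormone acts on the liver in pulses through STAT5, and none of the 23 members of that axis tested was called. Of these 19 were higher and 4 lower, with a median of 0.32 (15 and 8 after median-ratio scaling). Without control replicate 2 the median was 0.12, with 14 higher and 9 lower, and without LMKO replicate 2 it was 0.17. At least 2-fold higher without overlap were 3 members (2 after median-ratio scaling), against 0.867% of all loci, and 1 was lower in that way, against 1.23%. The lower member was Cebpb, a transcription factor of the C/EBP family. It stood at 31.0 and 42.9 FPKM in controls and at 13.3 and 15.02 FPKM in LMKO (-1.31, adjusted p = 0.0804). The STAT5 target genes Cish and Socs2, chosen after their values were seen, differed more within LMKO than between the groups. Cish stood at 6.79 and 2.48 FPKM in controls and at 0.593 and 27.1 FPKM in LMKO, and Socs2 at 21.4 and 2.41 against 8.04 and 41.5 FPKM. LMKO replicate 2 was the highest library for both genes.

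The 7 called rises were in genes of secreted proteins, membrane proteins and 1 non-coding RNA. Serpina6, which encodes the corticosteroid-binding globulin of blood plasma (chr12:104884842-104895281, mm9), stood at 40.7 and 20.5 FPKM in fasted controls and at 167 and 201 FPKM in LMKO. It rose by 2.62 ± 0.314 (adjusted p = 0.0404); its re-fed means were 222 ± 23.1 FPKM in controls and 273 FPKM in LMKO. Gm6484, which RefSeq lists as Angptl8, a feeding-induced inhibitor of lipoprotein lipase, stood at 2.81 and 2.10 against 32.1 and 13.7 FPKM (chr9:21639954-21641791, mm9). It rose by 2.68 ± 0.343 (adjusted p = 0.0435), beside re-fed means of 213 and 356 FPKM. For both genes the fasted LMKO livers lay between the fasted and the re-fed controls.

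The other rises were in genes of low level. Mmd2, a membrane protein of the progestin and adipoQ receptor family, stood at 0.984 and 0.943 against 5.50 and 6.37 FPKM (1.82, adjusted p = 0.0435). Dio3os, a non-coding RNA opposite the deiodinase gene Dio3, stood at 0.292 and 0.180 against 3.49 and 3.35 FPKM (1.84, adjusted p = 0.0435). Rtn4rl1, a Nogo receptor homologue, rose by 1.27, Gabbr2, a subunit of the GABA-B receptor, by 0.89, and Rell1, a relative of the TNF receptor family member RELT, by 0.79, with adjusted p of 0.0463, 0.0451 and 0.0451. None of the 7 rises was called after median-ratio scaling, where their adjusted p lay between 0.0503 and 0.0629, and none was called in more than 2 of the fits without 1 library.

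Further genes were at least 2-fold higher without overlap but did not pass. Gclc, the catalytic subunit of the enzyme that limits glutathione synthesis, stood at 26.8 and 21.8 FPKM in fasted controls and at 60.1 and 56.8 FPKM in LMKO (1.24 ± 0.178, adjusted p = 0.0654). C3, the central complement protein, stood at 1573 and 1248 against 2501 and 3167 FPKM (1.01 ± 0.172, adjusted p = 0.1004). The 2 libraries of each genotype lay closer to each other than to the other genotype for both genes. Also on this list were Tcea3, a transcription elongation factor (adjusted p = 0.0609), Hdac11, a histone deacetylase (0.0654), and Egln3, an oxygen-sensing prolyl hydroxylase (0.0884).

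The lists of lipid genes showed no common direction and held no call. Of 22 loci of fatty acid synthesis 11 were higher and 11 lower. Mlxipl, which encodes the glucose-sensing factor ChREBP, stood at 64.3 and 64.0 FPKM in LMKO against 34.2 and 21.1 FPKM in controls (1.23, adjusted p = 0.151). Fasn, fatty acid synthase, stood on the other side, at 9.61 and 6.14 against 22.9 and 13.7 FPKM (-1.11, adjusted p = 0.305). Of 22 loci of triglyceride synthesis and lipid droplets 16 were lower, with a median of -0.20. Among them Lpin1, a phosphatidate phosphatase, stood at 179 and 237 FPKM in controls and at 86.8 and 34.6 FPKM in LMKO (-1.89, adjusted p = 0.217). Of 32 loci of ketogenesis and fatty acid oxidation 21 were higher, near the share of all loci, with a median of 0.07 that became -0.02 after median-ratio scaling and -0.08 without control replicate 1. Of 26 target genes of the receptor PPAR alpha none was called, and 17 were lower and 9 higher. Their median was -0.19, and -0.01 without control replicate 2. The largest rise among them was Fabp1, the main fatty acid-binding protein of liver. It stood at 9989 and 11163 FPKM in LMKO against 4196 and 5949 FPKM in controls (1.08, adjusted p = 0.153). Of 24 loci of cholesterol synthesis and uptake 20 were lower, with a median of -0.62, but leaving out control replicate 1 turned the median to 0.06, with 14 higher and 10 lower. Fdps, farnesyl diphosphate synthase, stood at 116 FPKM in that library, 23.7 FPKM in control replicate 2 and 24.5 and 13.4 FPKM in LMKO.

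No gene on the lists of cytochrome P450 enzymes and their receptors, acute phase proteins, and coagulation and complement was called. The directions of these lists were near those of all loci, of which 34.8% were lower. Of 31 loci of cytochrome P450 enzymes and their receptors 20 were higher and 35.5% lower, with a median of 0.24 (0.15 after median-ratio scaling), and 6 were at least 2-fold higher without overlap, against 0.867% of all loci. Cyp3a11, a broad drug oxidase, stood at 2382 and 1582 FPKM in LMKO against 345 and 872 FPKM in controls (1.82, adjusted p = 0.192). Cyp2c44 stood at 77.4 and 134 against 47.0 and 27.1 FPKM (1.49, adjusted p = 0.145). Close copies of the Cyp2c and Cyp3a genes share reads, so the split among them is uncertain. Cyp2b10, a target of the receptor CAR, went the other way, at 2.04 and 4.38 FPKM in LMKO against 9.96 and 94.3 FPKM in controls (adjusted p = 0.252). Of 31 acute phase loci 29.0% were lower (median 0.26), and of 39 loci of coagulation and complement 30.8% (median 0.18). Leaving out 1 library moved the acute phase median between 0.11 (without LMKO replicate 2) and 0.47 (without LMKO replicate 1), the coagulation median to 0.06 (without control or LMKO replicate 2), and the P450 median to 0.42 (without control replicate 1).

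**Figure D4:**
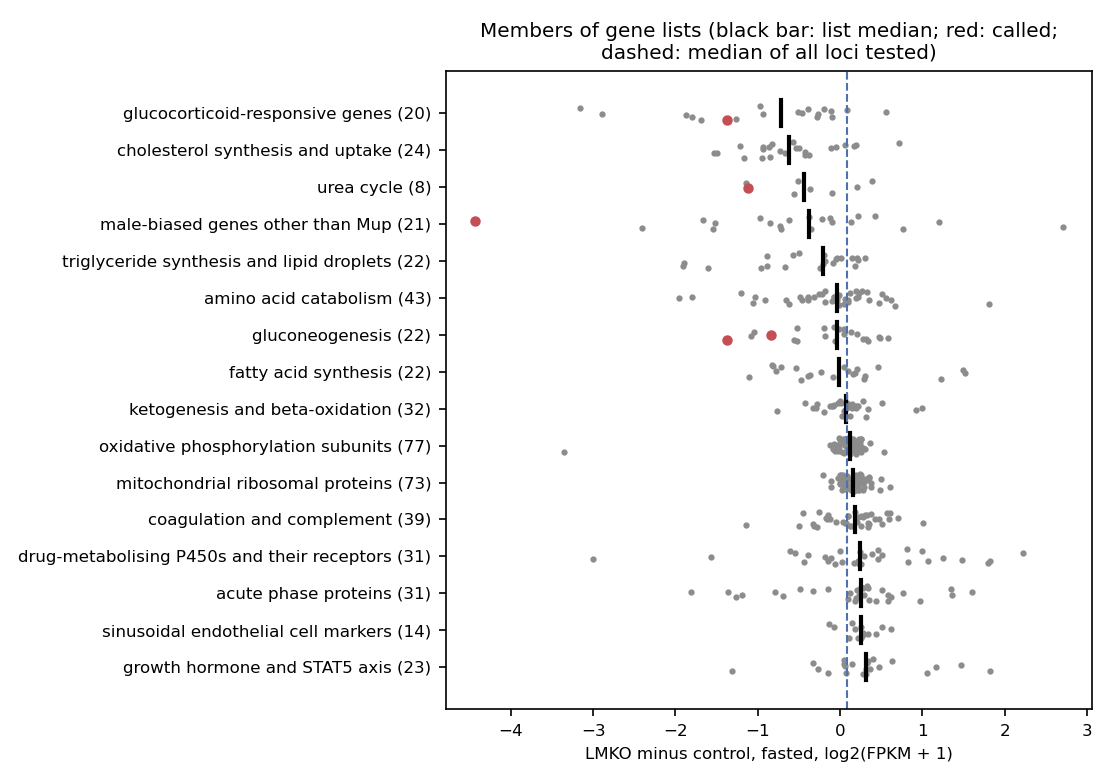
LMKO minus control difference in fasted liver (horizontal axis, log2(FPKM + 1)) of each tested member of 16 gene lists, 1 grey point per locus and red where called; the number tested is in brackets. Black bars mark list medians, from -0.72 for glucocorticoid-responsive genes to 0.32 for the growth hormone axis, and the dashed line the median of all loci, 0.08.

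The medians of the large complexes sat close to that of all loci. Lower were 6.85% of mitochondrial ribosomal proteins and 15.6% of oxidative phosphorylation subunits, against 34.8% of all loci. Higher without overlap were 46.6% and 58.4% of them, against 33.3% of all loci. Of 73 mitochondrial ribosomal proteins 68 were higher, with a median of 0.16. After median-ratio scaling 47 were higher, with a median of 0.07, beside 50.3% of all loci higher. Of 77 subunits of oxidative phosphorylation 65 were higher, with a median of 0.13 (50 and 0.04 after that scaling). One of these subunits stood apart: Cox6b2, a form of cytochrome c oxidase subunit known from testis, was at 44.2 and 20.9 FPKM in controls and at 3.17 and 1.29 FPKM in LMKO (-3.35, adjusted p = 0.153). Of 32 Mediator loci, Med23 included, none was called, and the median was 0.07.

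No marker of the other cell types of liver was called, and the lists differed in direction. Lower in LMKO were 35.7% of the Kupffer cell and macrophage markers and 33.3% of the stellate cell and fibroblast markers, near the 34.8% of all loci. Of 14 Kupffer cell and macrophage markers 9 were higher (6 without LMKO replicate 2), and their summed level was 161 and 207 FPKM in controls and 185 and 227 FPKM in LMKO. Of 14 sinusoidal endothelial markers 12 were higher, with sums of 133 and 142 against 184 and 161 FPKM that did not overlap. Of 12 stellate cell and fibroblast markers 8 were higher (5 after median-ratio scaling), with sums of 167 and 148 against 161 and 176 FPKM. The 5 erythroid markers tested were all lower, with sums of 105 and 61.7 against 52.7 and 46.1 FPKM. Without control replicate 1, however, 3 of the 4 erythroid markers tested were higher and their median turned from -0.54 to 0.19. The part of these markers in the results above was not tested. In whole liver, fewer cells of a type and less RNA per cell cannot be told apart.

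The re-fed livers, from other mice, gave a separate comparison of the genotypes for the genes called when fasted. Of the 20 called falls of at least 200 bases, 19 were also lower in value in re-fed LMKO; the exception was Hist1h4i, with means of 3.76 FPKM in LMKO and 2.66 FPKM in controls. In 18 of the 20 the re-fed groups did not overlap, against 19.2% of all loci lower in that way. The spread of the re-fed pairs entered the fasted calls, which favours genes with close re-fed pairs, so the share of all loci is not a like baseline. The re-fed difference itself was called, at a rate of 0.0675% lower over all loci, for 5 of the 20: Mup7, Mup11, Mup12, Mup16 and Mup17. Of the 7 called rises all were higher in value in re-fed LMKO, 4 of them without overlap, against 25.9% of all loci, and none was called, against 0.00964% of all loci.

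Of the other called genes of at least 200 bases, none passed in the re-fed livers. Pck1 stood at 352 and 397 FPKM in re-fed controls and at 206 and 225 FPKM in re-fed LMKO, without overlap (-0.79, adjusted p = 0.216). Asl stood at 406 and 387 against 364 and 388 FPKM, with overlapping groups (-0.08, adjusted p = 0.829). Rarres1 stood at 43.1 and 36.3 against 25.2 and 32.0 FPKM (-0.46, adjusted p = 0.366). The difference between the fasted and the re-fed genotype contrast was tested as an interaction and was called for none of the 27 genes (adjusted p = 0.455 for Serpina6 and for Asl, 0.302 for Rarres1 and 0.283 for 1300015D01Rik). The deposited per-library files carry 1 name prefix for the fasted and another for the re-fed livers; what it marks is not stated, and it cannot be told apart from feeding.

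**Figure D5:**
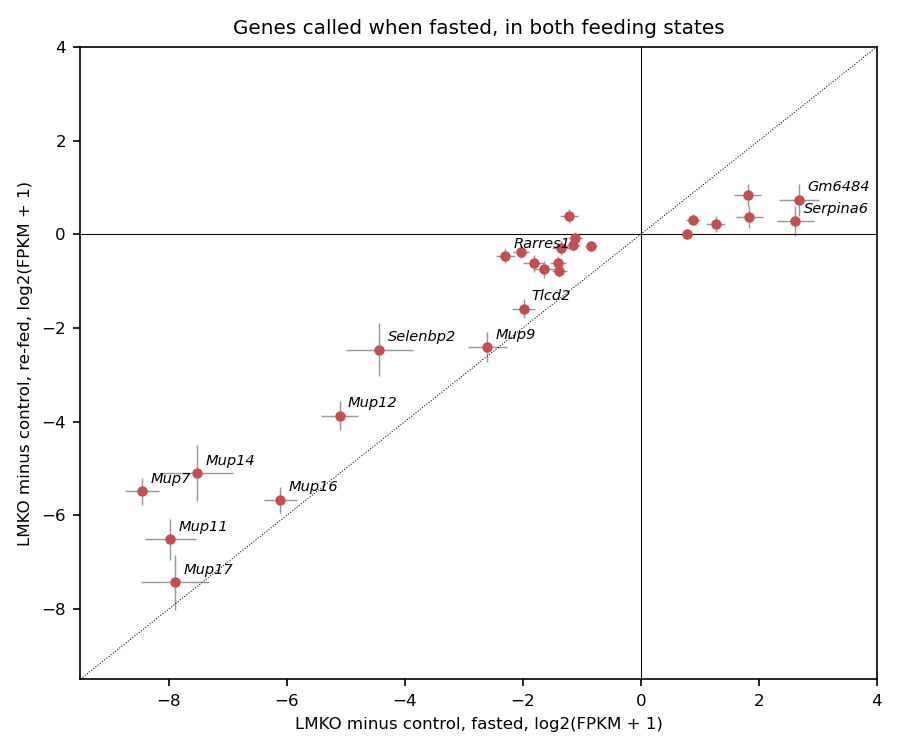
LMKO minus control difference of the 27 called genes in re-fed liver (vertical axis) against fasted liver (horizontal axis), both on the log2(FPKM + 1) scale with SE bars; the dotted line marks equal differences. The Mup genes were low in both states, while Serpina6 and Gm6484 lay at 2.62 and 2.68 when fasted and at 0.28 and 0.74 when re-fed.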

How the data were processed

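Polyadenylated RNA of whole liver was sequenced from 8 mice, and groups were taken from the sample labels. The authors deposited 1 FPKM value per locus and library. The submitters' processing notes name TopHat 1.4.1, Cufflinks 2.0.2, Cuffdiff 2.0.2 and the mm9 build; any further scaling of libraries is not stated there. Deposited starts count from 0 and are printed 1 higher. Depth is unknown: ratios of low FPKM values put the fasted libraries at 0.975 to 1.10 of control replicate 1, with 13.9% to 14.7% of the loci compared within 1% of the ratio.

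Loci that reached 1 FPKM in 2 or more fasted libraries were tested with limma 3.58.1 (R 4.3.3) on log2(FPKM + 1), a scale that understates the change of low genes. One model held the 4 group means of all 8 libraries, with 4 residual and 2.93 prior degrees of freedom and a mean-variance trend; two-sided p-values were adjusted over all 10377 loci after Benjamini and Hochberg, and the fit was tested on simulated data. Replicates are single mice, 2 per group.

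Named genes were Med23, every called locus, the 15 smallest p per direction among 2-fold differences without overlap (at least 200 bases, mean of at least 5 FPKM in the higher group), and up to 5 members of smallest p per list described; exceptions are stated, and a gene that the rule takes is not reported here. The members, lists and rules were chosen with earlier results of these data known. Promoters came from RefSeq's table, searched on both strands. Alternatives covered the pseudocount, filters, scaling, eBayes settings, libraries left out and a replicate block.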

Additional observations from a re-analysis of the deposited data

Results flagged for a closer look

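Snord23, a small nucleolar RNA locus of 99 bases, passed the test for an interaction of genotype and feeding. It was listed at 43.1 and 84.8 FPKM in the fasted LMKO livers and at 0 in the fasted controls and in all 4 re-fed livers, and the interaction was 5.94 on the log2(FPKM + 1) scale (limma, Benjamini-Hochberg adjusted p = 0.0142). It met the FPKM filter only through the fasted LMKO libraries, and the groups listed at 0 added no spread to the test. A value listed at 0 can be a failed estimate. The test therefore cannot show that the genotype difference depended on feeding, and 5.94 is not read as a fold.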

How the results depend on the processing

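With 2 mice per group, unknown fragment numbers and FPKM in place of counts, precision is limited, above all for low or short loci and near-identical copies. The direction of Med23 and of each gene named by rule was kept in all settings where it was tested, and Med23 was called in none. The 30 calls (9 higher, 21 lower) became 14 (4 and 10) without a filter on low values, 18 (2 higher) with the filter over all 8 libraries, 15 (7 and 8) with only the fasted libraries, and 5 higher with an FPKM minimum of 5. Leaving out 1 library gave 11 to 63 calls, with 2 to 24 higher and 9 to 39 lower: the most without fasted control replicate 1 and the fewest without fasted LMKO replicate 1. Median-ratio scaling gave 2 higher and 19 lower, quantile normalization 11 and 23. The 218 loci at least 2-fold apart (90 higher, 128 lower) became 330 (152 higher) with a pseudocount of 0.1, and 218 to 396 (90 to 195 higher, 128 to 201 lower) with a library left out. A replicate block gave 20 calls (6 and 14); the numbers share no stated pairing, and control and LMKO replicate 1 deviated from their group means with a correlation of -0.0117 across genes.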
